A study of Mus musculus with 12 samples.

Results

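The genes described here encode the structural glycoproteins, proteoglycans and elastic fibre components of the extracellular matrix. They comprised 46 genes, chosen by symbol and found by Ensembl identifier among the 55573 genes of a raw count table, and all 46 had enough counts to be among the 19174 genes tested. RNA was sequenced from C57BL/6 mouse embryonic fibroblasts (MEFs) taken at E13.5, in mid-gestation. The OSKM mice of the study are of the i4F-B strain. Their genome holds the transgenes Oct4, Sox2, Klf4 and Myc (OSKM), which reprogram cells and are switched on by doxycycline. The cells of 3 embryos, called clones 1, 2 and 3, were each cultured for 72 h in medium for induced pluripotent stem cells in 4 ways, which gave 4 groups of 3 libraries. MEF cells carried the transgenes but received neither doxycycline nor added vitamin, MEF+B12 cells received 2 µM vitamin B12, OSKM cells received 1 µg/ml doxycycline, and OSKM+B12 cells received both. Doxycycline was given to induced cells only, so the drug and the factors cannot be told apart. Each clone is 1 embryo, and the sample titles of clone 1 end in another number than those of clones 2 and 3, so whatever that number marks cannot be told apart from the clone.

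The extracellular matrix is the network of secreted proteins that fibroblasts build around themselves. Fibronectin and laminins bind integrins on the cell surface, elastin is laid down on a scaffold of fibrillin microfibrils with the help of fibulins, and lysyl oxidases crosslink elastin and collagen. Small leucine-rich proteoglycans such as decorin bind collagen fibrils, and some latent TGF-beta binding proteins, such as Ltbp1, hold the growth factor TGF-beta in store. Loss of mesenchymal character, including that of matrix gene expression, is known as an early step when fibroblasts are reprogrammed. Vitamin B12 is a cofactor of methionine synthase, and the study asked how its supply affects reprogramming.

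The 12 libraries held 56971244 to 79236795 counts, and the matrix genes took 4.59% to 6.05% of them. Levels are given below as CPM, the counts scaled to an equal library total with TMM factors, with the 3 clones of a group in the order 1, 2, 3. Pou5f1, which encodes Oct4, was at or below 0.468 CPM in the 6 uninduced libraries. It reached 19.3, 18.5 and 2.86 CPM in OSKM and 20.7, 19.0 and 2.34 CPM in OSKM+B12, so induction was present in every clone and lowest in clone 3. Sox2 showed the same order, at 15.5, 13.3 and 2.33 CPM in OSKM. All 9 fibroblast markers were expressed, with a summed level of 110510 to 132824 CPM in MEF, 105137 to 108658 CPM in MEF+B12, 81169 to 108790.0 CPM in OSKM and 88105 to 97613 CPM in OSKM+B12. This sum includes the collagens Col1a1, Col1a2 and Col3a1. In OSKM against MEF, 5 of the 9 markers had a lower estimate, at log2 fold changes of -0.45 (Col1a1) to -0.25 (Col3a1). The other 4, Thy1, Twist1, Prrx1 and Vim, were at 0.04 to 0.07, and none of the 9 passed the test used below. Markers of other cell types were also examined. All 13 macrophage markers passed the filter, and their sum was 1380.4 to 2626 CPM in MEF, 2088 to 3478 CPM in MEF+B12, 1416 to 2433 CPM in OSKM and 2183 to 2831 CPM in OSKM+B12. The 8 endothelial markers summed to 44.6 to 48.2 CPM in MEF and 55.4 to 147 CPM in OSKM, although Pecam1, Tie1 and Emcn stayed at or below 0.279 CPM throughout. The 5 mesothelial markers summed to 27.3 to 40.2 CPM in MEF and 36.5 to 76.5 CPM in OSKM, the 6 epithelial markers to 1.06 to 1.78 CPM and 1.28 to 11.4 CPM, and the 6 smooth muscle and pericyte markers to 554 to 806 CPM and 433 to 715 CPM. Markers of chondrocytes, skeletal muscle and neural cells stayed within 2.62 to 63.8 CPM as sums in all groups, and 6 pluripotency markers stayed at or below 0.657 CPM. Of the epithelial markers, Epcam and Krt5 stayed at or below 0.139 CPM throughout. For induction without B12, Krt18 had a log2 fold change of -0.08, against 1.74 for Cdh1, 2.49 for Krt8 and 2.69 for Krt14, and none passed. In such bulk samples, fewer cells of a type and less RNA per cell cannot be told apart. Nor can cells of another type be told apart from fibroblasts that express their markers.

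The matrix genes spanned more than 3 orders of magnitude in level. Exonic length here means all annotated exons of a gene merged, so it can exceed the length of the main transcript, and the ranking depends on it. On a scale of CPM per kb of exonic length, averaged over the 12 libraries, Sparc, a collagen-binding glycoprotein, was highest at 2369.9. It was followed by the integrin ligand Postn at 722, by Lox, which crosslinks elastin and collagen, at 678, and by the small leucine-rich proteoglycans Lum and Bgn at 628 and 595. Among elastic fibre genes, the microfibril proteins Mfap4 and Mfap2 stood at 554 and 411 CPM per kb, elastin itself (Eln) at 138, and the fibrillins Fbn1 and Fbn2 at 131 and 43.7. The thrombospondins Thbs1 and Thbs2 were close to each other at 408 and 362 CPM per kb, decorin (Dcn) stood at 379 and fibronectin (Fn1) at 331. Of the fibulins, Fbln2 was highest at 360.3 and Fbln5 lowest at 51.2. The basement membrane genes were expressed at lower levels, from 109 for the nidogen Nid2 to 0.850 for the laminin chain Lama5. Of the large proteoglycans, perlecan (Hspg2) was at 59.5 and versican (Vcan) at 51.4. Lama2, Sparcl1, Cilp, Spon1 and Lama5 made up the lowest 5, at 3.65 or less. The levels of Loxl2 and Tnxb are uncertain, because 46.2% and 9.7% of their 31-base words also occur in the exons of other genes (mainly Gm21451 and Tnxa), against at most 2.37% for the other 44 genes.

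**Figure D1:**
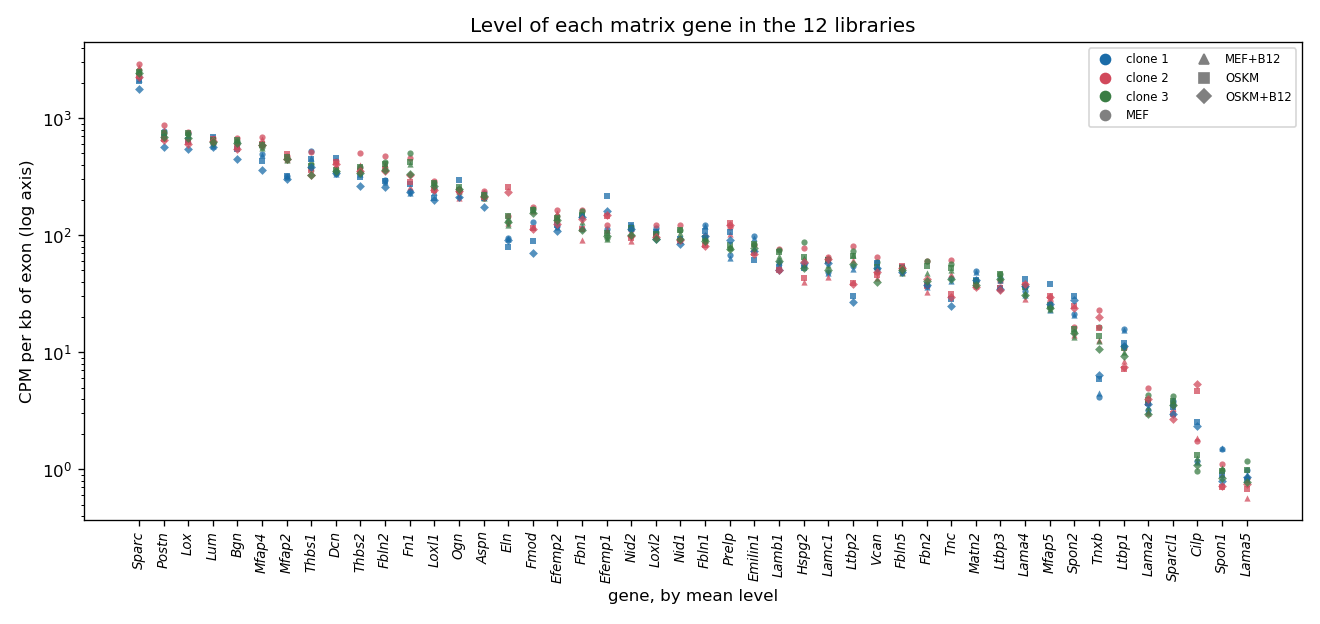
Level of each of the 46 genes in CPM per kb of exonic length on a log axis, with 1 point per library, coloured by clone and shaped by group. The order runs from Sparc, with a mean of 2369.9, to Lama5, with 0.850, and the points of Tnxb lie widest apart between clone 1 and the others.

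Induction of OSKM was compared first, without and with B12, to see how the matrix programme of the fibroblasts stood after 72 h. In a model with clone as a block, none of the 46 genes passed an adjusted p of 0.05 (edgeR quasi-likelihood test, Benjamini-Hochberg over all genes tested), in a comparison in which 0.073% of all genes passed without B12 and 0.104% with B12. At an unadjusted p of 0.05, 22 and 20 of the 46 passed, beside 3641 and 2854 of the 19174 genes tested. With DESeq2 instead, 8 matrix genes passed without B12 and 5 with it, where 2.75% and 2.35% of all genes did. Without B12, the estimate was lower in induced cells for 33 of the 46 genes and higher for 13, beside 9968 lower of the 19174 genes tested. The median log2 fold change was -0.15 against -0.01 over all genes. With B12, 26 were lower and 20 higher, beside 9474 lower of the 19174, with a median of -0.10 against 0.00. In 14 genes, the induced library was the lower one in all 6 pairs of libraries of a clone (with and without B12). These included the thrombospondins Thbs1 and Thbs2, the tenascin Tnc, Sparc and Postn, and all 3 latent TGF-beta binding proteins, Ltbp1, Ltbp2 and Ltbp3. In 3 genes, Spon2, Mfap5 and Efemp1, it was the higher one in all 6 pairs. Neither count of pairs was made over all genes.

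The genes with the smallest p in these comparisons were Ltbp2, Tnc and Cilp without B12, and Tnc, Ltbp2 and Sparcl1 with it. Ltbp2, which binds fibrillin microfibrils, was at 448, 664 and 601 CPM in MEF, 418, 500.1 and 553 CPM in MEF+B12, 247, 322 and 549 CPM in OSKM and 219.6, 311 and 469 CPM in OSKM+B12. The induced libraries of clones 1 and 2 lay below every uninduced library, and those of clone 3 lay among them. The log2 fold change was -0.68 ± 0.16 (SE, adjusted p = 0.159) without B12 and -0.62 ± 0.16 (adjusted p = 0.176) with it. Tnc, a tenascin that is made during development and repair, was at 338, 482 and 441 CPM in MEF, 318, 361 and 393 CPM in MEF+B12, 222, 246 and 408 CPM in OSKM and 195, 231 and 326 CPM in OSKM+B12. Here too, clones 1 and 2 gave the 4 lowest libraries, and the fold changes were -0.56 ± 0.13 (adjusted p = 0.159) and -0.54 ± 0.13 (adjusted p = 0.176). Cilp, a matricellular protein first described in cartilage, was expressed at low levels, at 4.99, 7.37 and 4.09 CPM in MEF, 4.91, 7.85 and 5.34 CPM in MEF+B12, 10.8, 20.0 and 5.64 CPM in OSKM and 10.0, 22.6 and 4.67 CPM in OSKM+B12. Its estimates were 1.03 ± 0.26 (adjusted p = 0.159) and 0.83 ± 0.26 (adjusted p = 0.19), and the 4 induced libraries of clones 1 and 2 were the highest. Sparcl1, a relative of Sparc, was at 11.4, 10.5 and 12.4 CPM in MEF, 11.4, 9.87 and 11.1 CPM in MEF+B12, 10.0, 8.78 and 11.2 CPM in OSKM and 8.78, 7.96 and 10.4 CPM in OSKM+B12. With B12, it had a log2 fold change of -0.26 ± 0.07 (adjusted p = 0.176), and its groups overlapped.

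By role, the small leucine-rich proteoglycans were divided. Without B12, Fmod had an estimate of -0.39 and Bgn of -0.14, whereas Prelp was at 0.28 and Dcn and Ogn at 0.14. The 7 elastic fibre genes ranged from -0.30 for Emilin1 to 0.29 for Mfap5, a microfibril protein, with Mfap2 at 0.02. Among fibulins, Efemp1 was at 0.44 and the others between -0.15 and 0.04. Basement membrane genes ranged from -0.28 for Lama5 to 0.13 for Lama4 without B12, and 5 of the 7 were higher with B12, when Lamc1 was at 0.22 and Lama4 at 0.20. The lysyl oxidases Lox, Loxl1 and Loxl2 were all lower, at -0.16, -0.18 and -0.15, and the large proteoglycans Hspg2 and Vcan were at -0.46 and -0.16. None of these estimates passed the test, and induction differences went along with exonic length in some pairs, as given below.

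**Figure D2:**
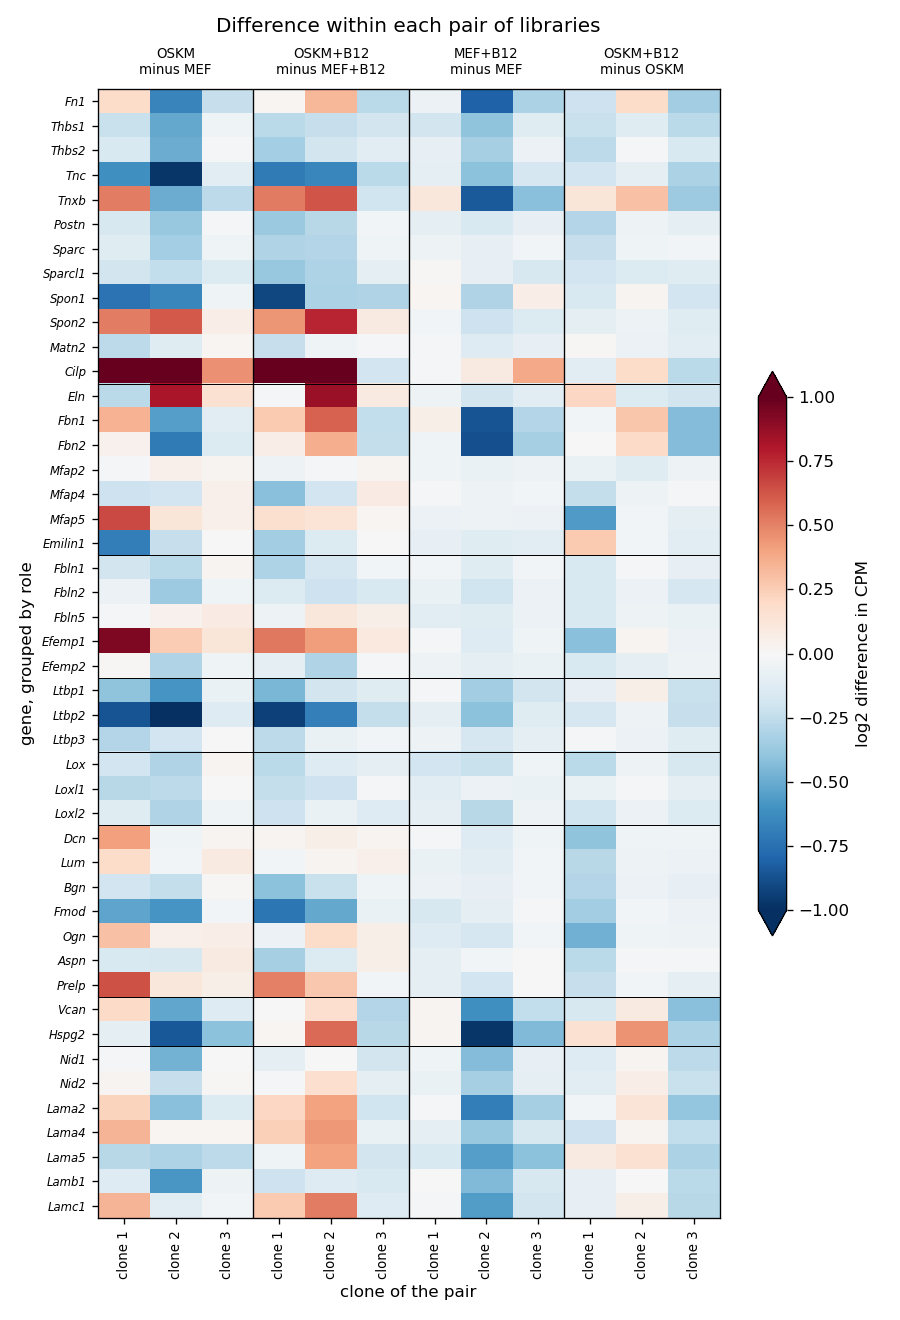
Log2 difference in CPM within each pair of libraries of a clone (prior count 2, colour scale from -1 to 1), for the 46 genes in rows grouped by role. The 2 left blocks show induction and the 2 right blocks B12. Clone 3 is palest under induction, and the B12 blocks are mostly blue.

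The response to induction differed between clones for 7 of the 46 genes. These were Eln, Spon2, Cilp, Ltbp2, Prelp, Fmod and Tnc, and in all 7 the response was smallest in clone 3, the clone with the lowest Pou5f1 and Sox2. The same held for 401 of the 413 genes that passed in the whole table, which were 2.15% of those tested. DESeq2 called 11 of the 46, against 3.6% of all genes. The test asked whether the clone by induction terms were needed, with the libraries without and with B12 standing in as replicates, so that p-values measure the spread between libraries of an embryo. Reprogramming factor levels and clone vary together, and their part in these differences was not tested. The counts rested on single libraries and clones, and those of the whole table moved along with them. Without clone 3, 0 matrix genes passed and 0 genes in all. The matrix count was 2 without clone 2 (195 genes in all) and 11 without clone 1 (724 in all). It was 1 without the OSKM+B12 library of clone 3 (128 in all), 4 without the MEF+B12 library of clone 2 (208 in all) and 16 without the OSKM library of clone 1 (838 in all).

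Of these 7 genes, 4 were higher in induced cells of clone 1, clone 2 or both. Elastin, the rubber-like core of the elastic fibre (Eln, ENSMUSG00000029675, chr5:134702593-134747323 on the minus strand), was at 772, 1177 and 1073 CPM in MEF, 747, 1039 and 992 CPM in MEF+B12, 639.6, 2084 and 1190.1 CPM in OSKM and 740.3, 1886 and 1054 CPM in OSKM+B12. Only the 2 induced libraries of clone 2 stood above the rest. The mean log2 change with induction was -0.14 in clone 1, 0.84 in clone 2 and 0.12 in clone 3 (edgeR adjusted p = 0.00948 for the difference between clones). Spon2, a spondin (ENSMUSG00000037379, chr5:33198184-33218455, minus strand), was at 62.5, 48.1 and 44.3 CPM in MEF, 61.2, 41.7 and 40.2 CPM in MEF+B12, 88.8, 73.4 and 46.4 CPM in OSKM and 83.0, 70.8 and 42.8 CPM in OSKM+B12. Its mean changes were 0.47, 0.69 and 0.08 (adjusted p = 0.0118), and the induced libraries of clones 1 and 2 did not overlap the other 8. Cilp (ENSMUSG00000042254, chr9:65265180-65280605, plus strand), given above, changed by 1.07, 1.48 and 0.14 (adjusted p = 0.0136).

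Prelp, a leucine-rich proteoglycan that anchors basement membrane to the tissue beneath it (ENSMUSG00000041577, chr1:133910304-133921414, minus strand), was at 245, 423 and 284 CPM in MEF, 230.3, 371 and 284 CPM in MEF+B12, 383, 457 and 297 CPM in OSKM and 326, 446 and 278 CPM in OSKM+B12. Clone 2 was the highest clone in every group, and the gap with induction was widest in clone 1, with mean changes of 0.57 in clone 1, 0.19 in clone 2 and 0.01 in clone 3 (adjusted p = 0.0271). The other 3 genes were lower in induced cells. Ltbp2 (ENSMUSG00000002020, chr12:84783212-84876532, minus strand) changed by -0.89, -0.86 and -0.19 (adjusted p = 0.0153). Fibromodulin, which binds collagen fibrils and limits their growth (Fmod, ENSMUSG00000041559, chr1:134037254-134048277, plus strand), was at 431, 572 and 551 CPM in MEF, 385, 532 and 542 CPM in MEF+B12, 298, 379 and 541 CPM in OSKM and 233, 372 and 517 CPM in OSKM+B12. The 4 induced libraries of clones 1 and 2 were the lowest, whereas clone 3 stayed between 517 and 551 CPM, and the mean changes were -0.63, -0.55 and -0.05 (adjusted p = 0.0405). Tnc (ENSMUSG00000028364, chr4:63959785-64047015, minus strand) changed by -0.66, -0.81 and -0.19 (adjusted p = 0.0465). Coordinates are those of GRCm38. Of the genes just outside the threshold, Efemp1 (0.73, 0.34 and 0.11, adjusted p = 0.0803) and Emilin1 (-0.52, -0.18 and 0.00, adjusted p = 0.0814) came next.

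**Figure D3:**
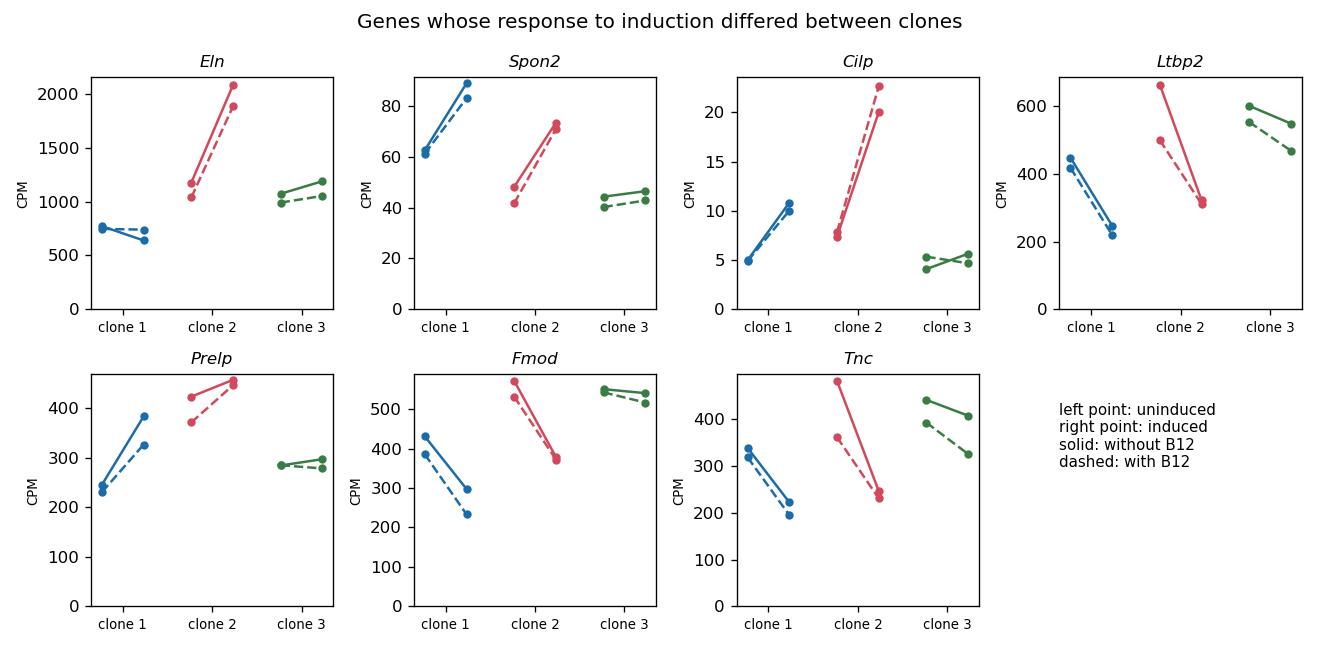
Level in CPM (axes start at 0) of the 7 genes whose response to induction differed between clones, with 1 point per library and a line from the uninduced to the induced library of each clone, solid without B12 and dashed with it. Averaged over both B12 conditions, the log2 change is smallest in clone 3 for all 7, while the dashed Eln line of clone 1 is flatter than that of clone 3. Eln stands highest in induced cells of clone 2, at 2084 CPM without B12.

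The promoters of these genes are shown because the factors induced here bind DNA at start sites and enhancers. RefSeq windows of 300 bases (250 before and 50 after the start, GRCm38.p6) were at hand for 28 of the 46 genes and 5 of the 7. Short motifs were searched on both strands. They were the TATA box, spelled TATAAA, and the GC box, for which the letters GGGCGG were taken. The letters GGGTGTGG stood for the motif of KLF factors, and the octamer that Oct factors bind was spelled ATGCAAAT. For SOX factors the search used CATTGTT, while the E-box known from MYC was written CACGTG in this search. The AP-1 motif was the last, with the letters TGANTCA. None of these contains another of them. Capitals below mark the matches. Ltbp2 (chr12:84876442-84876741, minus strand) held 2 GC boxes, Prelp (chr1:133921352-133921651, minus strand) held the KLF letters, and the upstream one of 2 Tnc windows (chr4:64046966-64047265, minus strand) held a GC box, a TATA box and the octamer. The windows of Cilp and Fmod held none of these letters.
Ltbp2: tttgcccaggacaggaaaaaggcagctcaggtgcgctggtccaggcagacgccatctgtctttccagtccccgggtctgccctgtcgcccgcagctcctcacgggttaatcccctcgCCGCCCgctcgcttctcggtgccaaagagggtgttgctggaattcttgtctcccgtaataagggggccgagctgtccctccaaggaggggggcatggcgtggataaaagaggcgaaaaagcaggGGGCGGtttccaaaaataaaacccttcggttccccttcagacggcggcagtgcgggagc
Prelp: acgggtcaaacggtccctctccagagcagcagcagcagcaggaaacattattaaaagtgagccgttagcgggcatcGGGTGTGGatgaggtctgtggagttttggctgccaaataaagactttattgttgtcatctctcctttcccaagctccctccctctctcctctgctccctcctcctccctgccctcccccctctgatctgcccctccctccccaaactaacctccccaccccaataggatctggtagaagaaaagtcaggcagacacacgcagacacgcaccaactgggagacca
Tnc: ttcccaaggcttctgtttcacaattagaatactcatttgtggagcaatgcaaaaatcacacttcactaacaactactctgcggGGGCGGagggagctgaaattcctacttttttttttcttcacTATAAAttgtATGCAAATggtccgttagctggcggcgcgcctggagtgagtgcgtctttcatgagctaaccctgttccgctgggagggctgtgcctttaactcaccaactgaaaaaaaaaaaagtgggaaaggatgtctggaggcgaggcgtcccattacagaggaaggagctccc
Over the 36 windows of the matrix genes, the KLF letters were found in 5.56% and the octamer in 5.56% (both windows of Tnc), against 3.56% and 1.74% of the 32851 windows of the whole table. GC boxes were found in 52.8% against 35.7%, TATA boxes in 16.7% against 13.6%, E-boxes in 5.56% against 7.15%, AP-1 letters in 8.33% against 7.81% and SOX letters in 0% against 3.78%. A match is a description of these letters and not a site of binding.

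Without clone 3, a fit of clones 1 and 2 alone tested 19231 genes. In that fit, 3 matrix genes rose and 7 fell with induction without B12, where 3.3% of all genes rose and 3.57% fell. With B12, 2 rose and 6 fell, against 2.46% and 2.76% of all genes. Cilp and Spon2 rose in both, by 1.29 ± 0.14 and 0.56 ± 0.08 on the log2 scale without B12 (adjusted p = 0.0033 and 0.00892), and Efemp1, which encodes a fibulin, passed without B12 only (0.60 ± 0.14, adjusted p = 0.0405). Ltbp2, Tnc, Fmod and Spon1 fell in both, with changes without B12 of -0.95 ± 0.08 (adjusted p = 0.00103), -0.79 ± 0.09 (adjusted p = 0.00322), -0.56 ± 0.08 (adjusted p = 0.00808) and -0.70 ± 0.13 (adjusted p = 0.0223). Ltbp1, Thbs1 and Loxl1 passed without B12, at -0.49 ± 0.08, -0.37 ± 0.08 and -0.27 ± 0.06, and Bgn and Postn passed with B12, both at -0.32. Whether these genes responded differently with and without B12 is the interaction below, in which none passed. The median over the 46 genes was -0.21 without B12 and -0.10 with it, against -0.01 and 0.00 over all genes. Clone 3 was set aside here with its factor levels known, and 2 clones remained per group.

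B12 was compared next, in each state and averaged over both. Averaged over MEF and OSKM, 45 of the 46 estimates were lower with B12, and Cilp alone was higher (0.08 ± 0.18). Over all genes, 10562 of the 19174 tested were lower. The differences were small, with a median log2 fold change of -0.12 against -0.01 over all genes, and none of the 46 passed the test, where 3.84% of all genes did. At an unadjusted p of 0.05, 19 passed, beside 2964 of all genes, but 5 did without the MEF+B12 library of clone 2, 8 without clone 2 and 11 without clone 3. DESeq2 called 3 (Thbs1, Lox and Loxl2), against 5.39% of all genes. In 24 genes, the library with B12 was the lower one in all 6 pairs, and in 15 more in 5 pairs. Pairs were not counted in this way over all genes. The matrix genes took 5.27%, 6.05% and 5.76% of the counts in MEF and 5.03%, 5.31% and 5.43% in MEF+B12, a smaller share in each clone. The same order was seen in OSKM (5.17%, 5.24% and 5.66%) and OSKM+B12 (4.59%, 5.17% and 5.19%).

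Thbs1, which activates latent TGF-beta and binds many matrix partners, came nearest to the threshold. It was at 3169, 3097 and 2459.6 CPM in MEF, 2799.9, 2340.0 and 2262 CPM in MEF+B12, 2715, 2174 and 2395 CPM in OSKM and 2329.9, 1997 and 1991 CPM in OSKM+B12, lower with B12 in every pair. The log2 fold change was -0.22 ± 0.05 averaged over both states (edgeR adjusted p = 0.0511), -0.24 ± 0.08 in MEF (adjusted p = 0.245) and -0.21 ± 0.08 in OSKM (adjusted p = 0.401). Lox was at 3577, 3669.5 and 3517 CPM in MEF, 3132, 3149.5 and 3417 CPM in MEF+B12, 3127, 2987 and 3585 CPM in OSKM and 2596, 2885 and 3208 CPM in OSKM+B12, and had -0.16 ± 0.05 (adjusted p = 0.144). Loxl2, a second enzyme of that family and with shared sequence as given above, had -0.14 ± 0.04 (adjusted p = 0.101) at 626, 662 and 572 CPM in MEF, 583, 544 and 552 CPM in MEF+B12, 577, 538 and 555 CPM in OSKM and 503, 517 and 505 CPM in OSKM+B12. Both were lower with B12 in every pair.

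In MEF alone, 45 of the 46 genes were lower with B12, beside 10633 of the 19174 genes tested. At an unadjusted p of 0.05, 12 passed, beside 1972 of the 19174 genes tested. The matrix count was 2 without the MEF+B12 library of clone 2 and 0 without clone 2. None passed by edgeR or DESeq2, where 1.38% and 2.9% of all genes passed. The smallest p were those of Lama5, a laminin chain of epithelial and endothelial basement membranes, Thbs1 and Fbn2. Lama5 was at 11.2, 9.55 and 13.4 CPM in MEF, 10.1, 6.49 and 10.1 CPM in MEF+B12, 9.20, 7.71 and 11.1 CPM in OSKM and 9.79, 8.59 and 8.89 CPM in OSKM+B12, with -0.36 ± 0.11 (adjusted p = 0.204). Fbn2, the fibrillin of developing tissue, was at 486, 799 and 796 CPM in MEF, 474, 433 and 635 CPM in MEF+B12, 499, 488 and 725 CPM in OSKM and 497, 557 and 536 CPM in OSKM+B12, with -0.42 ± 0.15 (adjusted p = 0.293). Clone 2 gave the widest gap in both, and without the MEF+B12 library of clone 2 the estimates were -0.26 and -0.30. The MEF library of clone 2, the highest of that clone for both genes, was not left out by itself. It also served in the induction comparison without B12. In OSKM alone, 43 of the 46 were lower, beside 10037 of the 19174 genes tested. Of the 46, 6 had an unadjusted p under 0.05, beside 1883 of the 19174. The matrix count was 0 without clone 1, 2 without clone 3 and 1 without the OSKM library of clone 1. It was 2 without the MEF+B12 library of clone 2 and 10 without the OSKM+B12 library of clone 3. With libraries left out, unadjusted counts were not made over all genes. None passed by edgeR or DESeq2, against 1.06% and 2.45% of all genes. The smallest p were those of Thbs1, Ogn (-0.19 ± 0.08, adjusted p = 0.452) and Lum (-0.13 ± 0.06, adjusted p = 0.493). Ogn, a small leucine-rich proteoglycan, was at 622, 604 and 627 CPM in MEF, 567, 538 and 613 CPM in MEF+B12, 763, 625 and 658 CPM in OSKM and 546, 607 and 637 CPM in OSKM+B12. The gap was widest in clone 1, with 763 and 546 CPM. Lum, which spaces collagen fibrils, was at 1499.6, 1648 and 1501 CPM in MEF, 1425, 1527 and 1469 CPM in MEF+B12, 1697, 1617 and 1592 CPM in OSKM and 1394, 1557 and 1524 CPM in OSKM+B12. It showed the same order, with the widest gap in clone 1.

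The interaction, which is how far the B12 difference of induced cells exceeded that of MEF, passed for none of the 46 genes and for none in the whole table (0% by edgeR and 0% by DESeq2), with 1 matrix gene and 273 of all genes at an unadjusted p under 0.05. That gene was Hspg2, which carries heparan sulphate chains in basement membranes, at 804, 1116 and 1244 CPM in MEF, 819.6, 569.5 and 915 CPM in MEF+B12, 748, 621 and 939.8 CPM in OSKM and 833, 846 and 754 CPM in OSKM+B12. The interaction was 0.57 ± 0.24 (adjusted p = 1), 0.39 without the MEF+B12 library of clone 2 and 0.14 without clone 2. Lama5 and Fbn2 followed with 0.34 each, and Fbn2 was at -0.03 without clone 2.

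Exonic length went along with the B12 differences, in opposite directions in different pairs. In MEF+B12 minus MEF, Spearman's rho between exonic length and log2 difference over the 46 genes was 0.31 in clone 1, -0.82 in clone 2 and -0.70 in clone 3. In OSKM+B12 minus OSKM it was 0.48, 0.48 and -0.82. Over 9752 coding genes at a mean log2 CPM of at least 3, rho was weaker (-0.05, -0.30, -0.10, 0.03, 0.17 and -0.27 in that order). The points of a pair share 2 libraries, so rho is a description and carries no p. For the 13 genes with 9000 exonic bases or more, the median difference was -0.61 in MEF clone 2 and -0.29 in MEF clone 3, against -0.10 and -0.04 for the 18 genes under 5000 bases. It was -0.32 against -0.07 in OSKM clone 3, but 0.13 against -0.04 in OSKM clone 2. In clone 1 the long genes had the difference nearer to 0, at -0.02 against -0.06 in MEF and -0.03 against -0.23 in OSKM. Both length limits were chosen after the values were seen, and exonic length, as defined above, need not be that of the transcript expressed. Examples of wide gaps come from clone 2 without induction. Hspg2 (14307 exonic bases) had 1116 CPM in MEF and 569.5 CPM in MEF+B12. Fbn1 (12128 bases) had 2003 and 1104 CPM, and Fn1 (11685 bases) had 5297 and 3023 CPM. In clone 1, Hspg2 was at 804 and 819.6 CPM. A correction for length and GC content, added after the data were seen, left 45 of the 46 averaged B12 estimates lower, at a median of -0.14. It called 1 (Thbs1, -0.22, edgeR adjusted p = 0.0312). The correction was fitted over expressed genes of the whole table, where length and B12 difference went together more weakly. It therefore need not remove the slope of the 46 genes, which was not measured after it. Induction differences also went along with length in some pairs. For OSKM minus MEF, rho over the 46 genes was -0.05, -0.59 and -0.67 in clones 1, 2 and 3. For OSKM+B12 minus MEF+B12 it was 0.15, 0.25 and -0.73. In clone 2, the median induction difference of the 13 long genes was -0.55 without B12 and 0.36 with it. RNA integrity was not measured in the files, and its part in the length pattern was not tested.

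**Figure D4:**
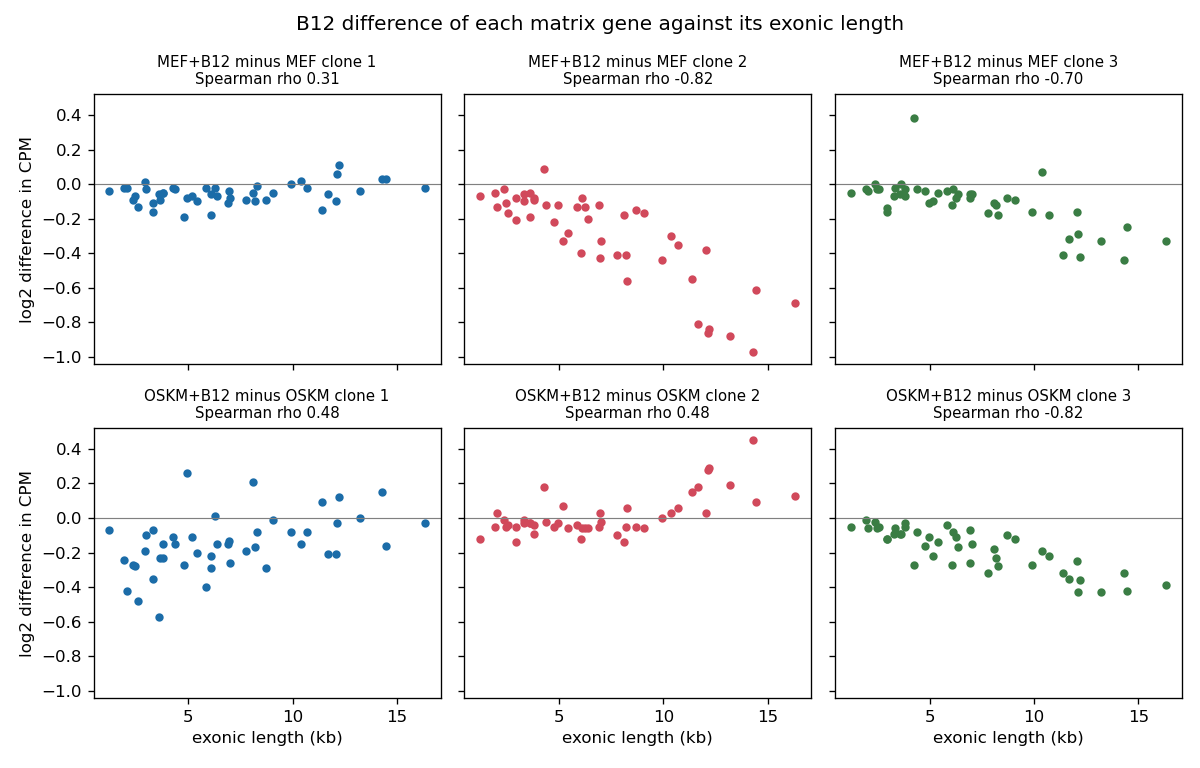
Log2 difference in CPM with B12 against exonic length in kb for the 46 genes, with 1 panel per clone and state. The points slope down in MEF clones 2 and 3 and OSKM clone 3 (rho of -0.82, -0.70 and -0.82) and up in OSKM clones 1 and 2 (0.48 each).

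The level of many of these genes also differed between the clones. In the same model, 28 of the 46 genes differed in level between clones, in a table in which 37.8% of all genes did. The lowest level was in clone 1 for 15 of the 28, in clone 2 for 7 and in clone 3 for 6. Of 12 fibronectin and matricellular genes 10 differed, of 5 fibulins 4, of 7 elastic fibre genes 4, of 3 latent TGF-beta binding proteins all 3, of 7 small leucine-rich proteoglycans 3, of 7 basement membrane genes 3, of 3 lysyl oxidases 1 and of 2 large proteoglycans 0. The 4 libraries of a clone share an embryo, so this test measures the spread between libraries and not between embryos. Without clone 1, 9 genes passed, and clone 1 also differs in its titles as given above.

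Tnxb, the tenascin whose loss makes connective tissue lax, had the widest range. It was at 50.5, 279.8 and 202 CPM in MEF, 54.6, 157 and 151 CPM in MEF+B12, 71.9, 199 and 168 CPM in OSKM and 78.3, 243 and 131 CPM in OSKM+B12, with all 4 clone 1 libraries below the other 8 (mean over 4 libraries of 63.8 ± 13.4 CPM in clone 1, 219 ± 53.4 in clone 2 and 163 ± 29.8 in clone 3, mean ± SD, edgeR adjusted p = 9.4e-05). Part of its sequence is shared with Tnxa. Fn1, the main adhesive glycoprotein of fibroblast matrix, was at 2811, 5297 and 5868 CPM in MEF, 2705, 3023 and 4710.1 CPM in MEF+B12, 3182, 3361 and 4988 CPM in OSKM and 2751, 3809 and 3904 CPM in OSKM+B12. The clone means were 2862 ± 217 CPM in clone 1, 3873 ± 1003 in clone 2 and 4868 ± 809.8 in clone 3 (adjusted p = 0.00242), with overlap between neighbouring clones. Ltbp1, which tethers latent TGF-beta to the matrix, was at 168, 116 and 122 CPM in MEF, 166, 90.9 and 108 CPM in MEF+B12, 128, 77.3 and 116 CPM in OSKM and 121, 80.4 and 99.4 CPM in OSKM+B12. Here clone 1 was the highest, with a mean of 146 ± 24.8 CPM against 91.2 ± 17.6 in clone 2 (adjusted p = 0.000266). Cilp, Eln, Ltbp2, Spon2 and Fmod also had wide ranges, with log2 ranges of clone means of 1.37, 1.03, 0.77, 0.75 and 0.71. In 7 of the 28 genes the clone 1 libraries did not overlap the other 8. These were Tnxb, Eln, Mfap2, Mfap4, Fbln2 and Efemp2, lower in clone 1, and Matn2, higher. Such a count was not made over all genes, so whether it is particular to the matrix genes is not known. Mfap2, a microfibril protein, had the smallest p, at 382 ± 10.3 CPM in clone 1, 565 ± 23.1 in clone 2 and 548 ± 13.8 in clone 3 (adjusted p = 5.65e-06). Mfap2 was picked after its values were seen, as was the gene with the narrowest range. Fbln5, which links elastin to cells, had means of 357, 359 and 347 CPM and did not pass (adjusted p = 0.592).

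**Figure D5:**
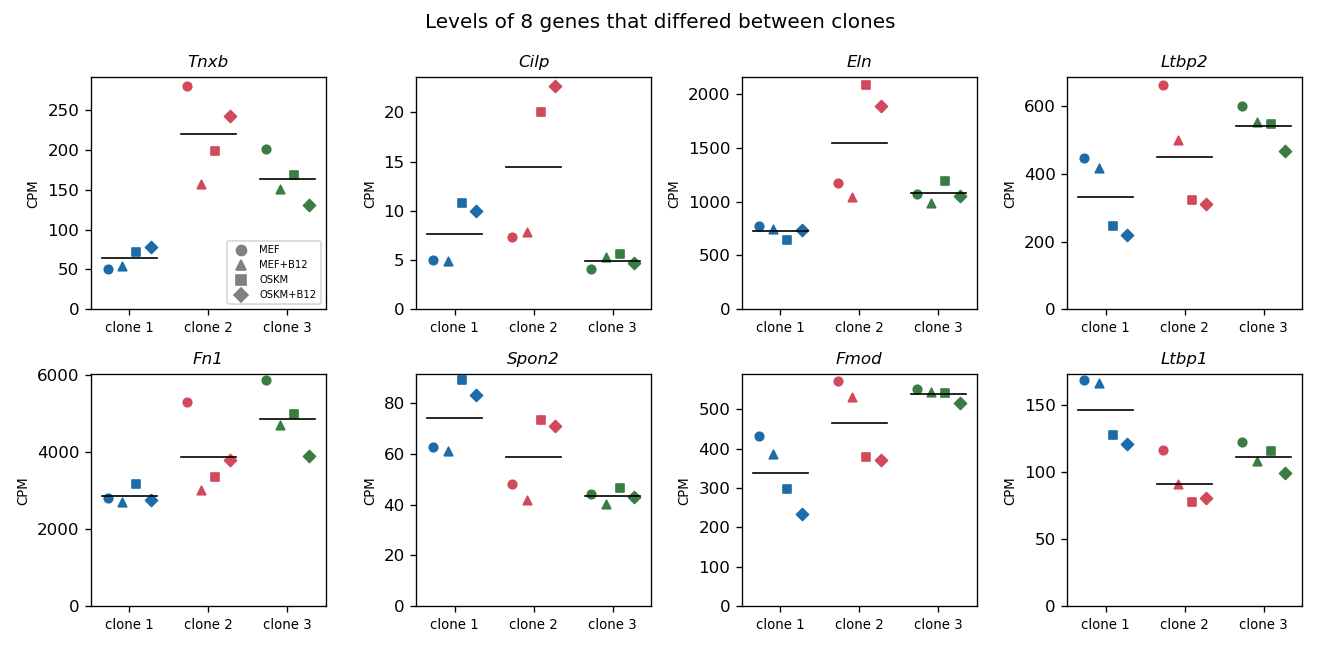
Level in CPM (axes start at 0) of the 8 genes with the widest range of clone means among those that differed between clones, with 1 point per library, shaped by group, and a line at the mean of the 4 libraries of a clone. Tnxb stands at 50.5 to 78.3 CPM in clone 1 and at 131 CPM or more in the others.

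Of the other genes of the matrix, 64 further glycoproteins and proteoglycans, 32 receptors, 43 biosynthesis enzymes and 43 collagen chains were tested. None of them passed for induction without or with B12. The collagens had the lowest median of these lists without B12 (-0.25, with 38 of 43 lower), and -0.13 with it. For B12 averaged over both states, 57 of the 64 glycoproteins had a lower estimate, at a median of -0.10. Of these, 1 passed (Epyc, a small leucine-rich proteoglycan, -0.14 ± 0.03, edgeR adjusted p = 0.0281). In the same comparison, 0 of 43 collagens passed (39 lower, median -0.10), and 1 of 43 enzymes rose. This was Xylt2, which starts glycosaminoglycan chains (0.21 ± 0.04, edgeR adjusted p = 0.00991). Of the 32 receptors, Cd36, Itga4 and Itgb7 rose with B12, by 0.87 ± 0.10, 0.78 ± 0.07 and 0.75 ± 0.16 (adjusted p = 0.000658, 0.000173 and 0.0276), and the glypican Gpc4 fell by 0.14 ± 0.03 (adjusted p = 0.0359). Cd36, a thrombospondin receptor, and the integrin chains Itga4 and Itgb7 are also known from blood cells, and 12 of the 13 macrophage markers rose with B12 in the same comparison, with a median of 0.56 over the list. The summed macrophage level given above was higher with B12, the direction opposite to that of the matrix genes, and its part in these results was not tested. All 9 fibroblast markers had lower estimates with B12 averaged over both states, at a median of -0.11, beside 10562 of the 19174 genes tested. Of these markers, 1 passed (Prrx1, -0.15, edgeR adjusted p = 0.0336), and their part in the matrix results was not tested. The response to induction differed between clones for 14 of 64 glycoproteins, 4 of 32 receptors, 6 of 43 enzymes and 3 of 43 collagens, against 2.15% of all genes, the collagens being Col9a2, Col23a1 and Col2a1. The glycoproteins with the smallest p were Crispld2, Tinagl1, Nell2 and Lamb3 (adjusted p = 0.00212, 0.00515, 0.00756 and 0.0096). Endothelial, mesothelial and epithelial markers also differed in this test, for 2 of 5, 4 of 5 and 2 of 4 tested, beside the same 2.15%, and their part in the matrix results was not tested.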

How the data were processed

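RNA-seq was carried out on 12 libraries (poly(A) RNA, directional kit, paired reads). According to the submitters' notes reads were aligned with STAR 2.5.2 to mm10 (GRCm38), and the authors counted them per Ensembl gene by strand, summed technical repeats and deposited raw counts, which were used as such. Groups were taken from the sample labels. Gene symbols, exonic lengths and coordinates came from the matching GENCODE M21 annotation (55480 of 55573 identifiers matched). Genes were filtered by expression (19174 kept), scaled by TMM and tested with the quasi-likelihood test of edgeR 4.0.16 in R 4.3.3, with all 12 libraries in 1 fit, clone as a block, and Benjamini-Hochberg adjustment over all genes tested at 0.05. The block was used because every embryo gave all 4 groups. Deviations of libraries of the same clone correlated at 0.27 to 0.687 (18 pairs), against at most 0.17 between clones. The standard error is the log2 fold change divided by the root of F. Differences within pairs of libraries used log2 CPM with a prior count of 2. Counts covered 56971244 to 79236795 reads per library, and the biological coefficient of variation was 8.04%. Differences between clones and in response between clones were tested as sets of terms, with libraries of an embryo as replicates.

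Values in every library were given for genes past the threshold in a comparison (at most 8, by size of change) or, where fewer than 3 passed, for the 3 of smallest p, and at most 4 genes per comparison were named from each other list. Other genes were named as examples of their role after their values were seen. The genes, lists and tests were chosen with earlier results of these data known. Alternatives were DESeq2 1.42.0, other scalings, filters, no block, only the libraries compared, and leaving out libraries. The correction for GC content and length, and leaving out the MEF+B12 library of clone 2 or the OSKM+B12 library of clone 3, were added after seeing the data. The scripts were tested on simulated data. Promoter windows came from RefSeq.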

Additional observations from a re-analysis of the deposited data

Results flagged for a closer look

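The response to induction differed between the clones, by a test of the clone by induction terms (edgeR), for 7 genes. The adjusted p was 0.00948 for Eln, 0.0118 for Spon2, 0.0136 for Cilp, 0.0153 for Ltbp2, 0.0271 for Prelp, 0.0405 for Fmod and 0.0465 for Tnc. The mean log2 change in clone 3 lay between -0.19 and 0.14 for all 7, and the widest spread between clones was that of Cilp, at 1.07, 1.48 and 0.14 in clones 1, 2 and 3. Clone 3 also had the lowest Pou5f1 level after induction, at 2.86 CPM in OSKM against 19.3 and 18.5 CPM in clones 1 and 2, and the part of that level in the response was not tested.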

How the results depend on the processing

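The number of matrix genes called for induction depended on the tool, the filter and clone 3. Without B12 it was 8 with DESeq2 and 10 with no filter (487 of 17687 and 681 of 33090 genes in all, against 14 of 19174), and 0 to 10 when a clone or library was left out, the 10 being without clone 3. With B12 it was 5, 6 and 0 to 8 (416 and 646 in all, against 20), the 8 again without clone 3. For B12 in MEF, 2 passed with no filter (Fn1 and Fbn2) and 3 in a fit of only the 6 libraries compared (Thbs1, Postn and Lama5, with 845 genes in all against 264). For B12 averaged, 3 passed with DESeq2 (934 of 17315 genes in all, against 736 of 19174). With no filter 3 passed, and 1 (Thbs1) did with library totals or the GC and length correction. For B12 in MEF and B12 averaged, counts over all genes under these last settings, including no filter, are not given here. These matrix counts therefore cannot be set beside a share of all genes. For the response between clones, 11 passed with DESeq2 (597 of 16571 in all), 19 with no filter (1257 of 33090) and 0 to 16 with libraries left out (0 to 838), against 7 (413). For levels between clones 9 to 30 passed, the 9 without clone 1 (1315 in all, against 7239). For B12 in OSKM and the interaction, 0 passed under every alternative run. The interaction of Fbn2 was 0.34 and ranged from -0.03 (without clone 2) to 0.56 (without clone 3). Without the replicate block, 0 matrix genes passed in each of the 6 comparisons of groups. Of the values of single named genes under alternatives, 404 kept their side of the threshold and, where the test gives one, their direction. The tests between clones give no direction. Of the other values, 24 passed the threshold newly, 30 no longer passed and 1 changed sign. The cause of these differences was not tested. With 3 embryos, small differences may pass undetected.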

Other observations

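Several of the genes lie near each other in the genome, and whether other genes lie between them was not examined. Prelp and Fmod, both small leucine-rich proteoglycans, are 116 kb apart on chromosome 1, and their mean responses to induction in clone 1 were 0.57 and -0.63 on the log2 scale. Dcn and Lum lie 47 kb apart on chromosome 10, and Aspn and Ogn 40.5 kb apart on chromosome 13. Without B12, the induction estimates were 0.14 for Dcn and 0.08 for Lum, and -0.08 for Aspn and 0.14 for Ogn, none of which passed the test.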
